A study of Mus musculus with 6 samples.

Results

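The genes described here sense DNA damage or repair it: 43 genes were listed by name, 42 of them were among the 19057 genes measured, and Xrcc2 was not analysed here. The arrays profiled organoids of the mouse small intestine, cultures in which crypt epithelium grows into closed, budding structures. In the Snai1 knockout group (3 arrays) the organoids came from mice with Villin-Cre and floxed Snai1 alleles (Snai1fl/fl), and in the control group (3 arrays) from mice with Villin-Cre alone. Both groups had received 0.5 µM tamoxifen, with harvest after 24 hours, so Cre and the drug are common to all 6 arrays. The floxed alleles are the difference that the labels name, and whether the mice differed otherwise is not given. The Villin promoter restricts Cre to intestinal epithelium, and the labels give neither the age of the mice nor whether replicates were separate animals or cultures. P-values thus cover the spread among these 6 samples alone, and that spread may be technical. RNA came from whole organoids, so fewer cells of a type and less RNA per cell cannot be told apart.

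Cells meet a broken or stalled DNA molecule with kinases of the phosphoinositide 3-kinase-like family: ATM answers broken ends, which the MRE11-RAD50-NBN complex holds, ATR answers single-stranded DNA coated with replication protein A, and DNA-PK joins ends through the Ku proteins. These kinases act through the checkpoint kinases CHEK1 and CHEK2 and through p53, while excision and mismatch pathways remove damaged or mispaired bases. The sensors are regulated mostly by phosphorylation and recruitment to the lesion, so a transcript array reads the supply of the machinery and not its activation. In crypts the dividing stem and progenitor cells also use many of these proteins in ordinary DNA replication. Cre recombinase cuts and rejoins DNA at its target sites, and the knockout organoids differ from the controls in carrying such sites at Snai1. The comparison thus bears on damage signalling, but the same organoids also lose Snai1 by design. Cutting at these sites and loss of Snai1 cannot be told apart here.

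Values are the deposited ones on a log scale, taken as log2, from 7.71 to 14.78, with the same distribution on every array (medians 7.8736 to 7.8737). The median lies only 0.16 above the lowest value, so the low end is compressed and the size of a difference between dim values is understated, by how much is not known. Of the 42 genes, 27 had a mean above 8.27, the upper quartile of all values, and the other 15 lay in the compressed range. The probes of Snai1 also lay there. ILMN_2904765 read 7.91, 7.86 and 7.96 on knockout arrays 1 to 3, against 7.87, 7.93 and 7.94 on control arrays 1 to 3, and the other probe, ILMN_1241355, read 7.91, 7.83 and 7.88 on knockout arrays, against 7.88, 7.82 and 7.87 on control arrays. The groups overlapped for both probes, and since their place relative to the floxed exons is unknown here, they check no label. Epithelial identity was plain in both groups, with the 8 epithelial markers averaging 11.71 to 11.96 on knockout arrays and 11.71 to 11.95 on control arrays, although the probes of Epcam read 8.07 to 8.15 on all arrays and those of the enterocyte genes Fabp1 and Fabp2 at most 7.90. The 14 measured markers of fibroblasts, endothelium, immune cells and smooth muscle averaged 7.86 to 7.87 on knockout arrays and 7.86 to 7.88 on control arrays, near the lowest value of the table.

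No gene of damage sensing or repair differed between Snai1 knockout and control organoids past the threshold, an adjusted p under 0.05 over all 19057 genes (limma, Benjamini-Hochberg). Over all genes 25 passed, which is 0.131% (0.0367% higher and 0.0945% lower), so a count of 0 among 42 is near the background. At an unadjusted p under 0.05 the count was 2 of 42 (4.76%), with Chek2 higher and Fanci lower, against 7.22% of all genes (3.88% higher and 3.34% lower). These were also the only members whose 3 knockout values all lay to the same side of the 3 control values, which held for 12.0% of all genes (6.20% higher and 5.85% lower). Of the 27 members above the upper quartile none passed the adjusted threshold, against 0.316% of all genes so bright, and 1 (3.70%) had an unadjusted p under 0.05, against 14.9%. In a fit of the bright genes alone these shares were 3.70% of the members and 9.48% of all genes so bright. Means were higher in knockout for 16 and lower for 26 members, the median log2 difference was -0.014 (all genes -0.001), and 49.3% of all genes had a higher mean in knockout. This split rests on control array 2: without it 24 of the 42 had higher means and the median was 0.010. The largest fold was 1.15, for Rad50, and 40 of the 42 differed by less than 1.1-fold on the deposited scale.

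The intervals give the range of differences that the values allow for each gene. For 30 of the 42 genes the 95% interval of the fitted difference lay within 1.2-fold in either direction, for 38 within 1.3-fold and for 41 within 1.5-fold. Over all genes the shares were larger, at 83.7% within 1.2-fold, 94.1% within 1.3-fold and 98.8% within 1.5-fold. The members were thus bounded less tightly than the genes of the array as a whole. Only the interval of Lig1 reached beyond 1.5-fold, at -0.33 to 0.59 on the log2 scale. Counting only the 27 genes above the upper quartile, 16 lay within 1.2-fold, 23 within 1.3-fold and 26 within 1.5-fold. Where the compression ends is not known, so folds of genes just above the quartile may be understated too.

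**Figure D1:**
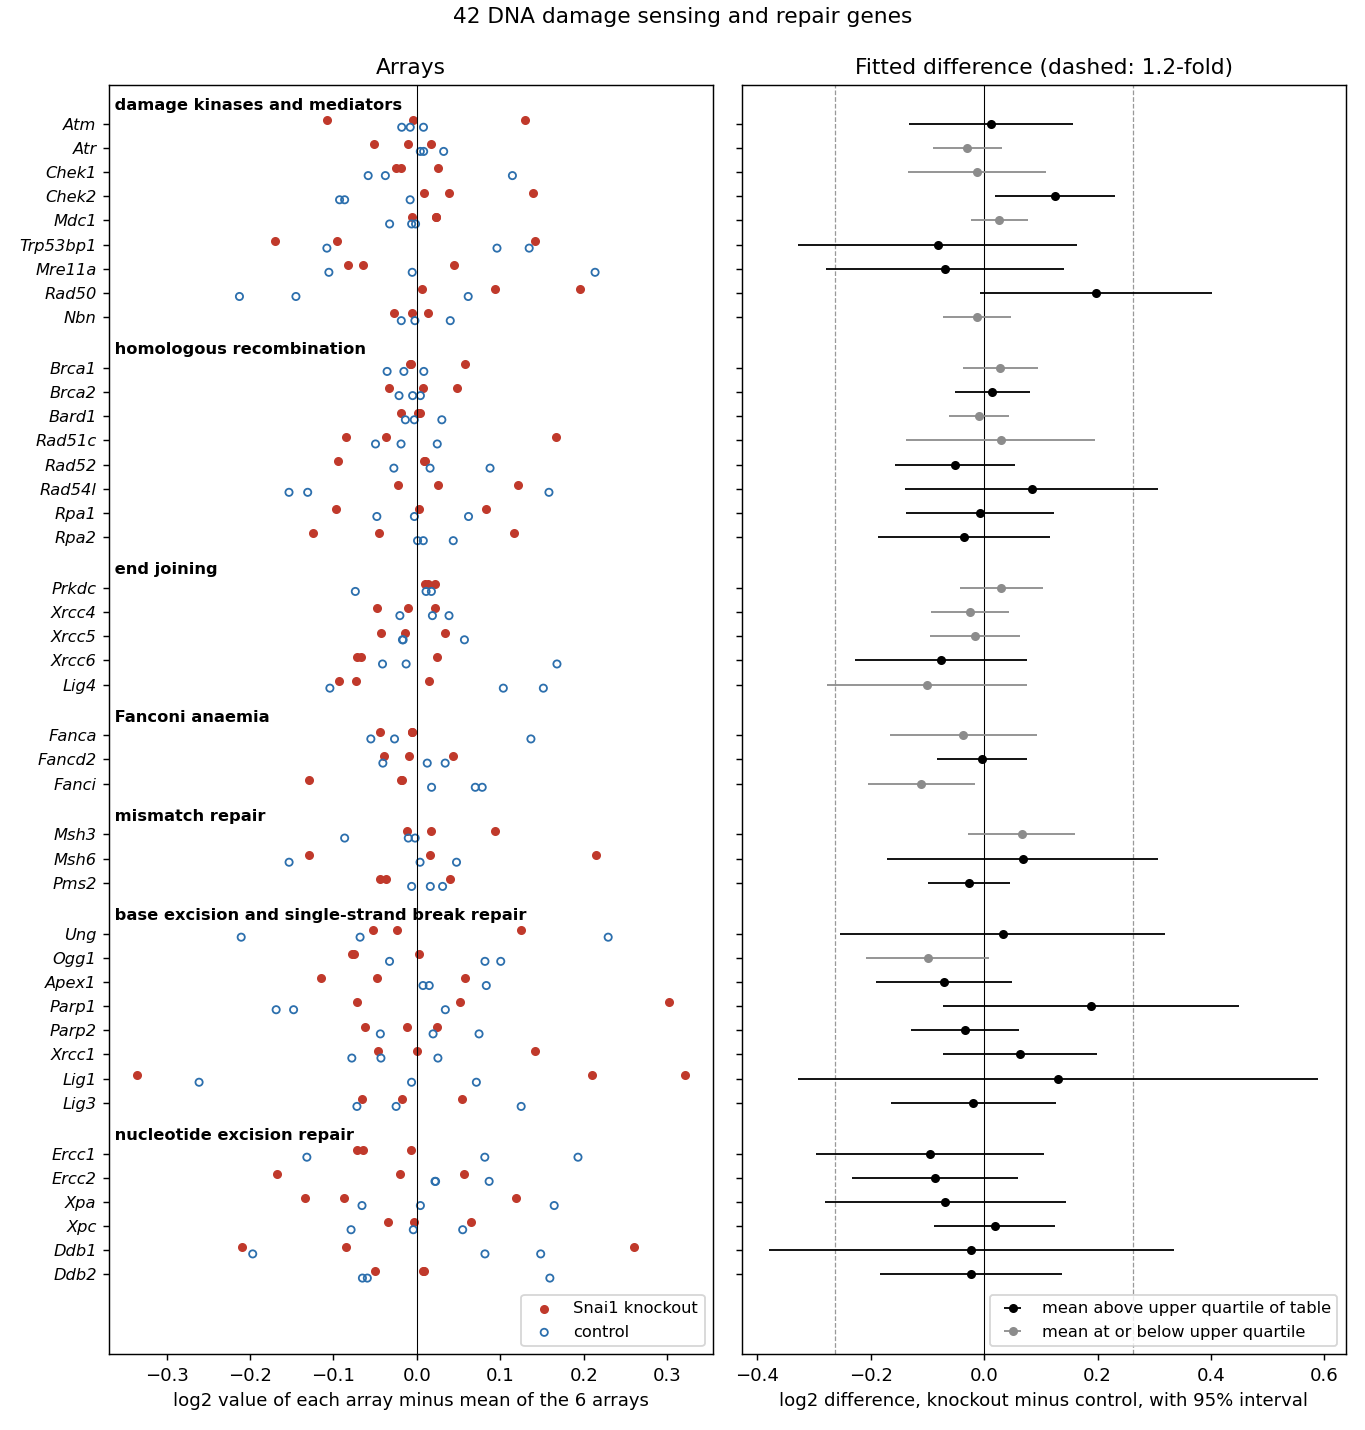
Left, each array's log2 value of the 42 genes minus that gene's mean over the 6 arrays (filled, Snai1 knockout; open, control). Right, the log2 difference of knockout minus control with its 95% interval, where dashed lines mark 1.2-fold, black marks genes with a mean above 8.27 and grey the others; only Chek2 and Fanci have intervals that leave out 0, and none passed the adjusted threshold.

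Among the kinases and mediators that detect damage, Chek2 had the lowest p of all members. It encodes the checkpoint kinase that ATM phosphorylates. Chek2 (chr5:110839800-110874140, GRCm38.p6) read 9.02, 9.15 and 9.05 on knockout arrays, against 9.01, 8.93 and 8.92 on control arrays. The groups did not overlap, but the gap between knockout array 1 and control array 1 was only 0.02. The difference was 0.12 ± 0.04 (SE; 1.09-fold; adjusted p = 0.59, limma), within the range that did not pass. Its 2 dimmer probes went the other way, by -0.06 ± 0.08 for ILMN_2856599 and -0.02 ± 0.03 for ILMN_1247062, so the brightest probe alone carried the higher value.

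Rad50 encodes the coiled-coil subunit that tethers broken ends. Its values were 9.94, 10.13 and 10.03 on knockout arrays, against 9.99, 9.72 and 9.79 on control arrays. Control array 1 lay above knockout array 1, so the groups overlapped. The difference, 0.20 ± 0.08 (SE; 95% interval -0.01 to 0.40; adjusted p = 0.71, limma), was the largest of any member in size. Its dimmer probes, in the compressed range, had the same sign, at 0.04 ± 0.04 for ILMN_2702087 and 0.05 ± 0.04 for ILMN_1257398. Of the other genes of this complex, the nuclease gene Mre11a differed by -0.07 ± 0.09. Nbn, which links the complex to ATM, differed by -0.01 ± 0.02 at the bottom of the scale, and no difference between the 3 genes was tested.

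Atm itself, which encodes the kinase activated at broken ends, read 9.36, 9.26 and 9.50 on knockout arrays, against 9.35, 9.36 and 9.37 on control arrays. The control values lay inside the knockout range, and the difference was 0.01 ± 0.06 (95% interval -0.13 to 0.16). Atr, which encodes the replication stress kinase, read 7.78, 7.85 and 7.82 on knockout arrays, against 7.86, 7.83 and 7.84 on control arrays. Its probe was dimmer than most of the table (brighter than 33.7% of probes), and the difference was -0.03 ± 0.03, with overlapping groups.

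Chek1, which encodes the checkpoint kinase downstream of ATR, had 8.04, 8.08 and 8.03 on knockout arrays, against 8.02, 8.17 and 7.998 on control arrays. The knockout values lay within the control range, with a difference of -0.01 ± 0.05. For Mdc1, the scaffold that binds phosphorylated histone H2AX, knockout arrays gave 7.80, 7.83 and 7.83, against 7.80, 7.77 and 7.80 on control arrays, all at the bottom of the scale. Trp53bp1 encodes 53BP1, which steers breaks towards end joining. It read 8.87, 8.64 and 8.56 on knockout arrays, against 8.87, 8.83 and 8.62 on control arrays, with array 1 the highest and array 3 the lowest of each group. The difference of -0.08 ± 0.10 was smaller than the SD of either group. Its dimmer probe ILMN_1243753 went the other way, by 0.10 ± 0.04 (SE), with groups that did not overlap. ILMN_2565270 differed by -0.06 ± 0.05.

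**Figure D2:**
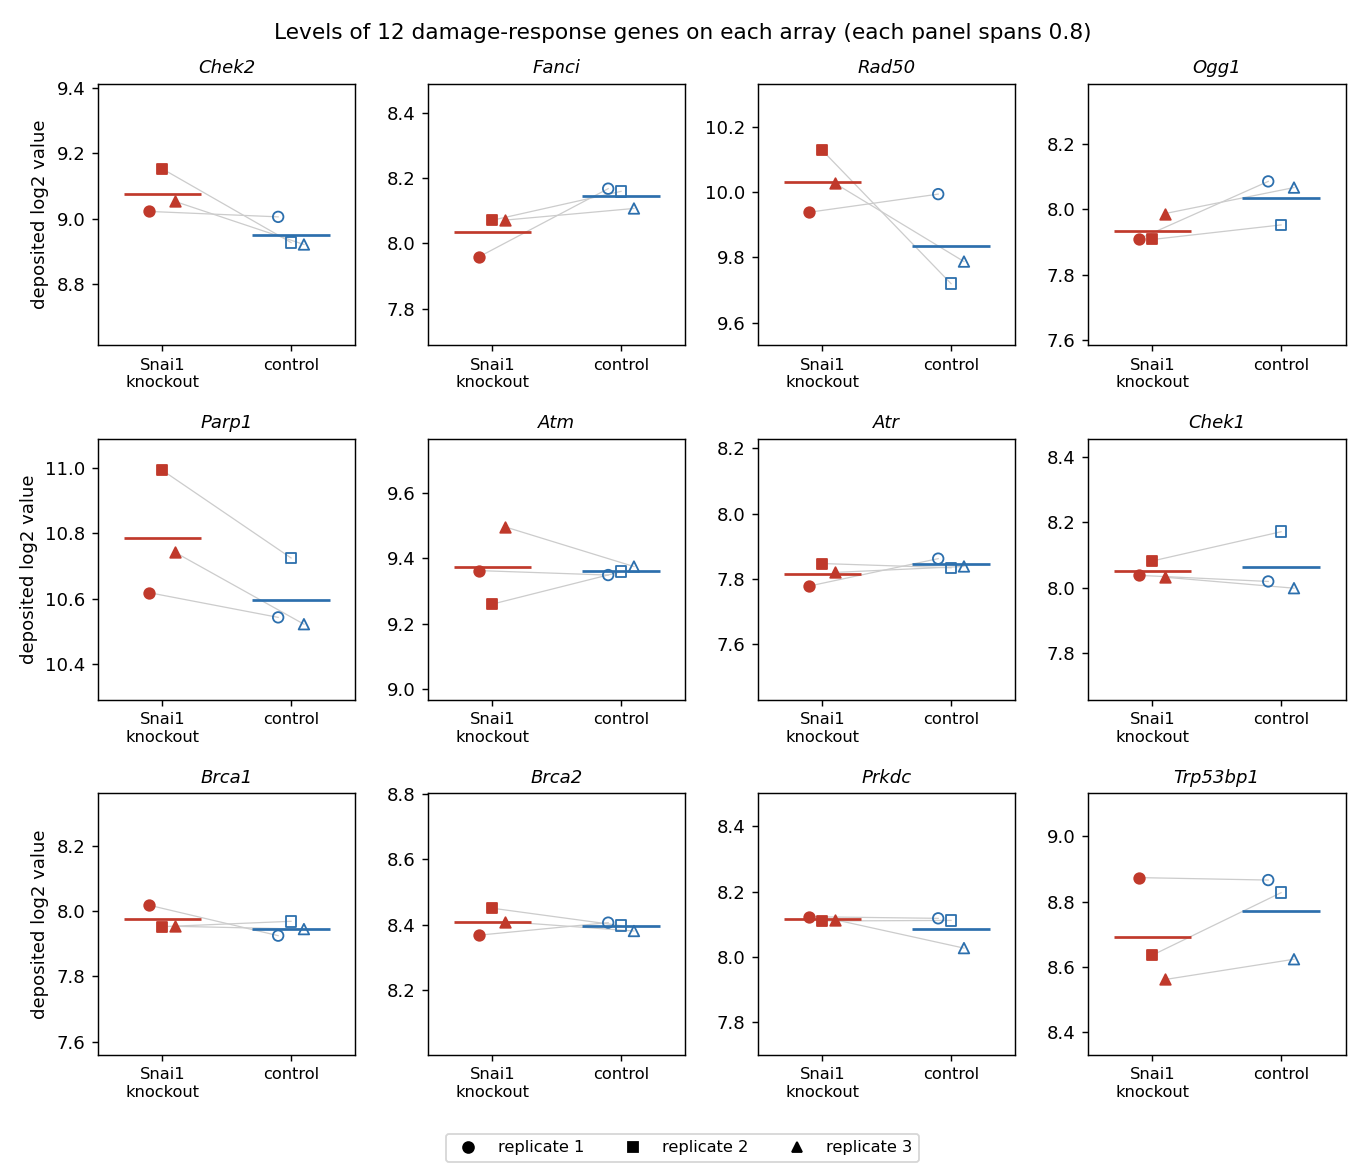
Deposited log2 values of 12 damage-response genes on each array, knockout left and control right, with replicate numbers as symbols, group means as bars and grey lines joining arrays of the same number. Each panel spans the same range, so the 0.20 difference of Rad50 and the 0.01 of Atm can be read on 1 scale.

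Genes of homologous recombination, the template-guided repair of breaks, split evenly, with 4 of 8 higher and 4 lower and none past either threshold. Brca1, which promotes the resection of broken ends, read 8.02, 7.95 and 7.95 on knockout arrays, against 7.92, 7.97 and 7.95 on control arrays. Brca2, which acts after resection in the same pathway, had 8.37, 8.45 and 8.41 on knockout arrays and 8.41, 8.40 and 8.38 on control arrays. Neither pair of groups separated, with differences of 0.03 ± 0.03 for Brca1 and 0.01 ± 0.03 for Brca2. Rad52, a strand-annealing factor, read 8.56, 8.46 and 8.57 on knockout arrays and 8.57, 8.64 and 8.53 on control arrays, again overlapping. The remaining 5 were the motor gene Rad54l (9.79 ± 0.07 in knockout and 9.71 ± 0.17 in control, SD, n = 3 each), the recombination gene Rad51c, Bard1, whose product pairs with BRCA1, and the single-strand binding genes Rpa1 and Rpa2. Their differences ran from -0.04 (Rpa2) to 0.08 (Rad54l). Rpa1 was measured far above the compressed range, at 11.86 ± 0.09 in knockout and 11.87 ± 0.06 in control, with an interval of -0.14 to 0.12.

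End joining ligates broken ends without a template, and of its 5 members only Prkdc had a higher mean in knockout, with none past either threshold. Prkdc, the catalytic subunit gene of DNA-PK, read 8.12, 8.11 and 8.11 on knockout arrays, against 8.12, 8.11 and 8.03 on control arrays. Xrcc6, which encodes Ku70, had 11.31, 11.21 and 11.22 on knockout arrays, against 11.27, 11.45 and 11.24 on control arrays. Control array 2 stood above the rest and the difference of -0.08 ± 0.06 did not pass (adjusted p = 0.92, limma). Lig4, the end-joining ligase gene, gave 8.12, 8.14 and 8.23 on knockout arrays, against 8.37, 8.11 and 8.32 on control arrays. Here control array 2 was the lowest of all, and the groups overlapped, at -0.10 ± 0.07. Xrcc4, the partner of this ligase, and Xrcc5, which encodes Ku80, differed by -0.02 each, with means of 7.81 to 7.85 in either group that lay at the bottom of the scale.

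The Fanconi anaemia pathway unhooks crosslinks between DNA strands. All 3 members had lower means in knockout, and only Fanci stood apart. Fanci (chr7:79392312-79450266, GRCm38.p6), which encodes a component of the clamp that is ubiquitinated at stalled forks, read 7.96, 8.07 and 8.07 on knockout arrays, against 8.17, 8.16 and 8.11 on control arrays. No knockout value reached the lowest control value, and the difference was -0.11 ± 0.04 (SE; adjusted p = 0.60, limma). It lies in the compressed range, so its size is understated. The other probe of Fanci differed by -0.04 ± 0.02. Fancd2, the clamp partner of FANCI, was level, at 8.38 ± 0.04 in knockout and 8.38 ± 0.04 in control, and the core complex gene Fanca differed by -0.04 ± 0.05.

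Mismatch repair corrects replication errors. Msh3, whose product recognises larger loops, read 8.11, 8.21 and 8.14 on knockout arrays, against 8.03, 8.12 and 8.11 on control arrays. The difference of 0.07 ± 0.04 was positive in each pair of arrays with the same number but the groups overlapped. Msh6, whose product recognises single mismatches, averaged 11.21 ± 0.17 in knockout and 11.14 ± 0.11 in control, and a second probe gave a difference of 0.08 beside the 0.07 of the first. Pms2, the endonuclease subunit gene, differed by -0.03 ± 0.03.

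Base excision and single-strand break repair had 4 of 8 members higher and 4 lower. Parp1 encodes the polymerase that marks strand breaks with poly(ADP-ribose). Its values were 10.62, 10.99 and 10.74 on knockout arrays, against 10.54, 10.72 and 10.52 on control arrays. Array 2 was the highest of each group, and control array 2 lay above knockout array 1, so the groups overlapped while each knockout array exceeded the control array of its number, by 0.08, 0.27 and 0.22. The difference was 0.19 ± 0.11 (SE; adjusted p = 0.83, limma), and with the replicate number as a block the unadjusted p was 0.011 and the adjusted p 0.25. Without knockout array 2 the difference was 0.08. A second bright probe of Parp1, ILMN_2621385, differed by 0.18 ± 0.14, close to the first, and the third by 0.04 ± 0.02.

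Ogg1, the glycosylase gene for oxidised guanine, read 7.91, 7.91 and 7.99 on knockout arrays, against 8.09, 7.95 and 8.07 on control arrays. It was lower in 3 of 3 pairs of the same number, at -0.10 ± 0.04 (adjusted p = 0.73, limma; blocked unadjusted p = 0.039, adjusted 0.41), in the compressed range. Its 2 other probes, at the bottom of the scale, differed by -0.002 and -0.01. Apex1, the gene of the endonuclease that cuts at abasic sites, gave 9.37, 9.55 and 9.44 on knockout arrays, against 9.50, 9.57 and 9.50 on control arrays. Within pairs of the same number the differences were -0.13, -0.03 and -0.06, and the groups overlapped. Xrcc1, the scaffold gene of single-strand break repair, read 9.32, 9.18 and 9.13 on knockout arrays and 9.13, 9.20 and 9.10 on control arrays. Knockout array 1 alone stood high.

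The other 4 members of this pathway lay between -0.03 and 0.13. Lig1, the replicative ligase gene, read 10.11, 10.77 and 10.65 on knockout arrays, against 10.18, 10.44 and 10.51 on control arrays. Array 1 was the lowest in both groups, and the replicate numbers spread the values by 0.46, against a difference of 0.13 ± 0.19. Ung, the uracil glycosylase gene, averaged 10.35 ± 0.10 in knockout and 10.32 ± 0.22 in control, with array 2 the highest of each group. The poly(ADP-ribose) polymerase gene Parp2 differed by -0.03 ± 0.04 and the ligase gene Lig3 by -0.02 ± 0.06.

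Nucleotide excision repair removes bulky and ultraviolet lesions, and 5 of its 6 members had lower means, none past either threshold. Ercc1, an incision nuclease subunit gene, read 8.75, 8.69 and 8.68 on knockout arrays, against 8.84, 8.95 and 8.62 on control arrays. Ercc2, which encodes the XPD helicase, had 8.40, 8.32 and 8.17 on knockout arrays and 8.43, 8.36 and 8.36 on control arrays. Both overlapped, at -0.10 ± 0.08 for Ercc1 and -0.09 ± 0.06 for Ercc2. Single arrays moved both: Ercc1 was at -0.02 without control array 2 and -0.18 without control array 3, and Ercc2 at -0.03 without knockout array 3 and -0.14 without knockout array 1. Xpa, the verification factor gene, differed by -0.07 ± 0.09. The lesion sensors Xpc and Ddb2, which p53 induces in human cells, read 8.50 ± 0.05 and 8.70 ± 0.03 in knockout, against 8.49 ± 0.07 and 8.73 ± 0.13 in control. The dimmer probes of Ddb2 disagreed in sign, all in the compressed range. ILMN_1229502 differed by 0.06 ± 0.04 (SE), ILMN_2621160 by 0.08 ± 0.03 and ILMN_2655244 by -0.04 ± 0.02. Ddb1, the adaptor that joins DDB2 to a ubiquitin ligase, varied most of these 6 within groups, with 10.10, 9.75 and 9.63 on knockout arrays and 9.92, 9.64 and 9.99 on control arrays.

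Arrays that share a replicate number tended to share their deviations over all genes (r = 0.35, 0.33 and 0.46). Parp1, Lig1, Ung and Trp53bp1 are examples, while the pair differences of Rad50 were uneven, at -0.06, 0.41 and 0.24. For 33 of the 42 genes (78.6%) the spread between replicate numbers exceeded the difference between genotypes, as it did for 76.4% of all genes. Such a spread is often larger than a difference between groups without any sharing, so these shares do not show sharing. With the number as a block no member passed the adjusted threshold either, which 0.0472% of all genes did (0.0262% higher and 0.0210% lower). At an unadjusted p under 0.05 the count was then 4 of 42 (9.52%), Chek2 and Parp1 higher and Fanci and Ogg1 lower, against 10.9% of all genes (5.88% higher and 5.04% lower). The sign was the same in 3 of 3 pairs for 9 members, 5 higher and 4 lower, and for 30.8% of all genes (15.7% higher and 15.2% lower). Without knockout array 1 the unadjusted count was 6 (14.3%, against 9.09% of all genes in that fit), and none passed the adjusted threshold (lowest adjusted p 0.40, Chek2).

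The 42 genes were represented by 99 probes, of which none passed an adjusted p of 0.05 over all 45281 probes (0.0883% of all probes did; lowest adjusted p among the 99, 0.69, limma). At an unadjusted p under 0.05 there were 6 of 99 (6.06%, against 6.23% of all probes). Beside the brightest probes of Chek2 and Fanci these were dimmer probes of Lig1, Mre11a, Rad51c and Rpa2. The clearest of the 4 was ILMN_2597840 of Rpa2, at 8.24 ± 0.06 in knockout and 8.35 ± 0.04 in control, a difference of -0.11 ± 0.04 that the brightest probe of Rpa2 showed only as -0.04 ± 0.06. Of the 57 further probes, 28 had the opposite sign from the brightest probe of their gene. Only 10 of the 57 lay above the upper quartile.

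**Figure D3:**
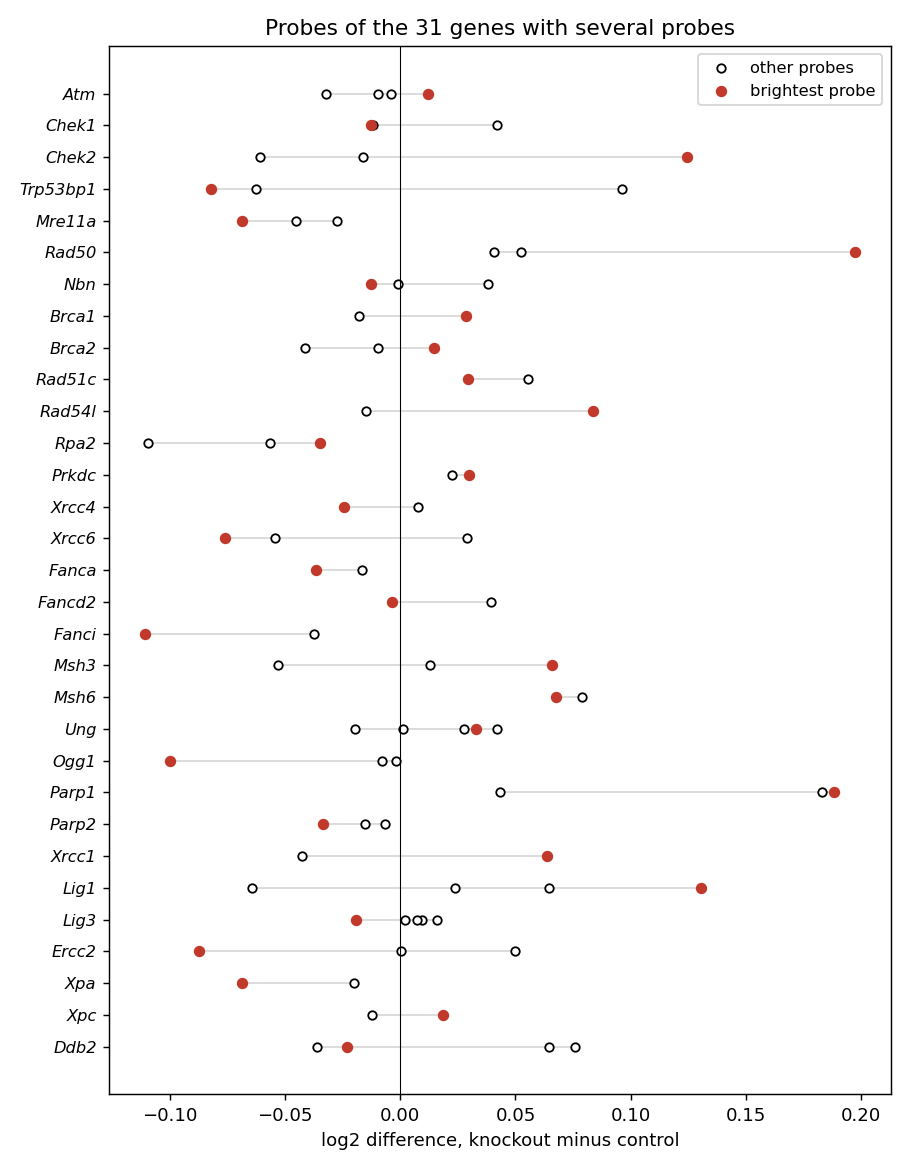
Log2 difference of knockout minus control for every probe of the 31 genes with several probes, the brightest filled and the others open. All lie between -0.11 and 0.20, and Parp1 has 2 probes near 0.19 and 0.18. For Chek2 and Rad50 the brightest probe stands apart from the others, which have the opposite sign for Chek2 and the same sign for Rad50.

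Snai1 encodes a zinc-finger repressor that binds E-boxes of the form CAGGTG. This motif was searched on both strands in the 250 bases before the start sites in RefSeq's promoters (GRCm38.p6), which covered 36 of the 42 genes. It was found in 4 of the 36 (11.1%), against 19.4% of the 27025 genes with a promoter in that table. The stretches around it are shown because they hold the letters that the deleted repressor recognises; each runs 5′ to 3′ on the strand of its gene, with the motif or its complement in capitals.
Rad54l, chr4:116123861-116123914, minus strand: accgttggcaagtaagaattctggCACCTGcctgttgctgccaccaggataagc
Fanca, chr8:123318742-123318795, minus strand: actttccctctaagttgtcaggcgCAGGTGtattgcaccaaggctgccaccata
Lig3, chr11:82780889-82780942, plus strand: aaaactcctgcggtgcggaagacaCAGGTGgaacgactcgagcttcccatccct
Ddb1, chr19:10605503-10605556, plus strand: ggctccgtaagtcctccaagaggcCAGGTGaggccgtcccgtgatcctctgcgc

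The motif began 200 bases before the start of Rad54l, 195 before that of Fanca, 196 before that of Lig3 and 70 before that of Ddb1. None of these genes passed either threshold, and their differences were 0.08 for Rad54l, -0.04 for Fanca, -0.02 for Lig3 and -0.02 for Ddb1. A match is only a stretch of letters, and binding was not measured. The E2F-type motif TTTNGCGC of replication genes was found in 1 of the 36 promoters (2.78%, against 1.31% of all), that of Msh3, and the motif CCAAT in 17 (47.2%, against 37.5%), with differences from -0.10 to 0.12 among the genes that hold it.

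A wider list of repair genes was set beside the members. Of 117 further repair genes listed, 107 were measured, none passed the adjusted threshold, and 5 (4.67%) had an unadjusted p under 0.05, 4 higher and 1 lower, against 7.22% of all genes. Of the 107, 62 lay above the upper quartile, where the share over all genes was 14.9%. The median difference of the 107 was 0.00, with 54 higher and 53 lower. With the replicate block 14 (13.1%) had an unadjusted p under 0.05, against 10.9% of all genes. Of these, 11 were higher, a larger share of the 107 than the 5.88% over all genes. The 3 lower were a smaller share than the 5.04% over all genes, and none passed the adjusted threshold. The lowest p belonged to Ercc8, which encodes the CSA protein of transcription-coupled repair. Ercc8 read 8.92, 8.83 and 8.83 on knockout arrays, against 8.63, 8.50 and 8.39 on control arrays. Its groups were well apart, at 0.35 ± 0.06 (SE, 1.28-fold, adjusted p = 0.24, limma, and 0.10 with the replicate block), a difference larger than that of any of the 42 genes. Next came Paxx, an end-joining factor gene, at 8.36, 8.37 and 8.33 on knockout arrays, against 8.44, 8.53 and 8.52 on control arrays, a difference of -0.14 ± 0.03 (adjusted p = 0.30, limma). Polb, the gap-filling polymerase gene of base excision repair, differed by 0.14 ± 0.04 (adjusted p = 0.51, limma), the nucleotide excision factor gene Rad23b by 0.17 ± 0.07 and Parp3 by 0.06 ± 0.02.

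Other lists by pathway gave no member past the adjusted threshold. In homologous recombination 9 of 20 further genes had higher means, and the lowest p were those of Rad51d (-0.08), Xrcc3 (0.07) and Rad51b (-0.03). Checkpoint genes had 8 of 18 higher, with Telo2, a kinase-folding factor, at -0.06, the ubiquitin ligase gene Rnf168 at -0.14 and the clamp gene Rad1 at 0.09. For the Fanconi anaemia pathway it was 5 of 12, with Fancg at -0.08, Ube2t at 0.08 and Fancl at -0.08. Both further mismatch repair genes measured were higher, Mlh3 by 0.06 and Pms1 by 0.02 without passing. The list of translesion synthesis and direct reversal had 8 of 16 higher, with the polymerase gene Polk at 0.10 and the demethylase gene Alkbh2 at -0.07. This list also held Rpa3, a single-strand binding gene as are Rpa1 and Rpa2, at -0.11. The remaining lowest p in end joining were those of Rif1 (0.11) and Poll (0.16), in base excision of Tdg (0.12), and in nucleotide excision of Ccnh (-0.09).

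Targets of p53, the transcription factor that damage kinases stabilise, are the transcripts by which such signalling is usually read. Of 25 measured, 19 had higher means in knockout, the median difference was 0.11, and 10 were higher and 1 lower at an unadjusted p under 0.05 (44.0%, against 7.22% of all genes and 14.9% of those above the upper quartile, where 16 of the 25 lay). Only Ckap2 rose past the adjusted threshold (0.21 ± 0.02; adjusted p = 0.034, limma; 0.13 with the replicate block). Trp53inp1, an autophagy and stress gene, differed by 0.55 ± 0.07 and the cyclin kinase inhibitor gene Cdkn1a by 0.39 ± 0.06. Their adjusted p were 0.11 and 0.14 (limma). This list was chosen with the earlier result known and is no independent evidence of its direction, and no test of the difference between it and the repair genes was made. Rrm2b, the ribonucleotide reductase gene that supplies repair with nucleotides, was the member lower at an unadjusted p under 0.05 and is named after its values were seen. It read 8.04, 8.05 and 8.08 on knockout arrays, against 8.17, 8.25 and 8.18 on control arrays (-0.15 ± 0.03; adjusted p = 0.28, limma).

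Markers of the cell types of the epithelium were set beside these lists, and none passed the adjusted threshold. Crypt base stem cell markers had 4 of 4 higher means (median difference 0.23) and averaged 9.07, 9.31 and 9.24 on knockout arrays, against 8.91, 9.14 and 8.88 on control arrays. Enterocyte markers had 5 of 5 lower means (median -0.02) and averaged 10.72, 10.67 and 10.86 on knockout arrays, against 10.88, 10.72 and 10.98 on control arrays. Only 3 of the 5 enterocyte markers lay above the upper quartile, Fabp1 and Fabp2 lying in the compressed range. The 5 differences ran from -0.28 to -0.0007, so the shared sign says little. The ranges of the groups overlapped for the stem cell and for the enterocyte markers. Goblet cell markers had 3 of 3 higher means, Paneth cell markers 1 of 3 and enteroendocrine markers 1 of 3. The part of these cell types in the values of the p53 targets or the repair genes was not tested.

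Since many repair genes are transcribed with the cell cycle, S phase and mitosis genes were set beside them. Of 27 measured, 10 had higher and 17 lower means, the median difference was -0.018, and 4 had an unadjusted p under 0.05 (14.8%), 1 higher and 3 lower, against 7.22% of all genes. Of the 27, 20 lay above the upper quartile, where the share over all genes was 14.9%. The lowest p were those of Tyms, which makes thymidylate (-0.18 ± 0.06; adjusted p = 0.59, limma), the mitotic ubiquitin carrier gene Ube2c (-0.13 ± 0.05) and the spindle motor gene Kif11 (0.14 ± 0.06). On each array the median deviation of the 42 repair genes from their own means was small, at -0.006, 0.002 and -0.008 on knockout arrays and 0.004, 0.030 and -0.021 on control arrays.

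**Figure D4:**
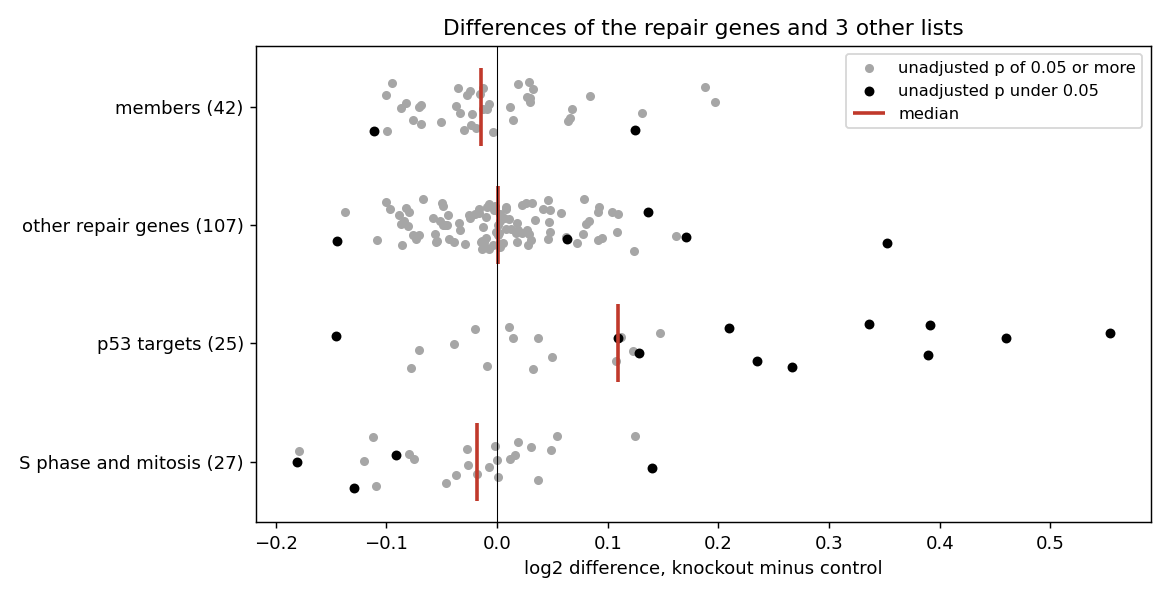
Log2 differences of knockout minus control for the 42 repair genes, 107 further repair genes, 25 p53 targets and 27 S phase and mitosis genes, each point a gene, black where the unadjusted p was under 0.05, with the median as a red bar. The medians are -0.014, 0.00, 0.11 and -0.018.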

How the data were processed

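Per the labels' protocols, Trizol-extracted, column-cleaned RNA from mouse organoids was made into biotinylated cRNA for Illumina arrays. The deposited table holds log2 values (base taken as 2) for 45281 probes; sorted columns differ by at most 0.0019, which shows that the authors equalised the arrays' distributions. No source read here states the background correction or software. Of the probes, 34885 have 1 gene in the platform annotation, 18 several and 10378 none listed. By gene number 34807 matched the GRCm38.p6 gene table, which gave names and positions. Each of 19057 genes was taken from its brightest probe by mean, with no filter.

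Knockout minus control was fitted with limma 3.58.1 (R 4.3.3; lmFit, eBayes, Benjamini-Hochberg over all genes), and the script was tested on simulated data. Intervals are those of the moderated fit. The number of arrays limits the precision. Deviations of same-numbered arrays correlated at r = 0.35, 0.33 and 0.46 over genes, so the numbers were treated as pairs in a blocked fit; what a number shares is not stated. Members and lists were chosen with earlier results of these data known. Arrays were grouped by title. Values on every array are given for the 16 members of lowest p and for 5 further members named whatever their values, and for some others chosen after their values were seen. In other lists the called genes and the 3 of lowest p are named. Alternatives covered the block, normalization, dim genes, probe handling, variance model, array weights and leaving out each array.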

Additional observations from a re-analysis of the deposited data

How the results depend on the processing

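Across 13 alternatives no member passed the adjusted threshold (lowest adjusted p from 0.25 with the replicate block to 0.82 without knockout replicate 3). The count over all genes, 25 as fitted, was 9 with the replicate block, 41 with dim genes left out, 71 with trend and robust variance, 40 over all probes and from 4 (without knockout replicate 3) to 23 (without knockout replicate 1) with 1 array left out. Members at an unadjusted p under 0.05, 2 as fitted, numbered 4 with the block, 1 of the 27 left without dim genes, and 2 to 6 (6 without knockout replicate 1) with 1 array left out. The 1 left without dim genes was Rad50 (adjusted p = 0.52, limma) and not Chek2 (0.62). Members with a higher mean, 16 as fitted, numbered 16 to 24 (24 without control replicate 2). The members' median, -0.014, ran from -0.033 without control replicate 3 to 0.010 without control replicate 2. Averaging probes turned Atm to -0.01, Chek1 to 0.01 and Brca2 to -0.01, and array weights turned Chek1 to 0.002. Averaging probes also brought Chek2 to 0.02, Rad50 to 0.10, Msh3 to 0.01, Ogg1 to -0.04, Ercc2 to -0.01 and Trp53bp1 to -0.02. With 1 array left out, Brca2 ran from -0.01 to 0.04, Atm from -0.05 to 0.07 and Chek1 from -0.04 to 0.04. Leaving out 1 array also moved the sizes of others that kept their sign. Parp1 ran from 0.08 to 0.27, Ercc1 from -0.18 to -0.02, Ercc2 from -0.14 to -0.03 and Lig4 from -0.18 to -0.05. Trp53bp1 ran from -0.17 to -0.02, Xrcc6 from -0.12 to -0.01 and Xrcc1 from 0.01 to 0.10. None of these genes was called, and the cause was not tested. Compressed low values limit the 15 dim members, and may limit those just above the upper quartile.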
